A study of Homo sapiens with 6 samples.

Results

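Sugar and monocarboxylate transporters were taken here as the solute carrier (SLC) families 2, 5, 16, 37, 45 and 50, read through every probe set whose platform annotation named exactly 1 gene of these families. The rule found 76 of 54675 probe sets, and these named 40 genes. RefSeq lists 49 protein-coding genes in the 6 families. The other 9, which include SLC2A14 and 7 of the 14 SLC16 genes, were not analysed here. The most studied lactate carriers of the family are therefore not described. Total RNA came from CL1-0 and CL1-5, 2 lung adenocarcinoma lines of the parental line CL1, labelled poorly invasive and highly invasive. Each was grown without any agent in RPMI medium with fetal bovine serum and antibiotics, and each gave 3 biological repeats on one-colour Affymetrix arrays. Each line is a single subline, so a difference between them belongs to this pair of lines. The question is how the carriers for sugars, inositol and monocarboxylates differ between them.

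Glucose enters most cells down its gradient through the facilitative GLUT carriers of family SLC2, whereas the SLC5 carriers use the sodium gradient to take up glucose, inositol, vitamins or iodide. Glycolytic cells turn pyruvate into lactate, which leaves with a proton through the monocarboxylate carriers (MCT) of family SLC16, and other SLC16 members carry carnitine, aromatic amino acids or thyroid hormones. SLC37 proteins exchange sugar phosphates or phosphate across the endoplasmic reticulum, and SLC45 and SLC50 members are further sugar carriers. Tumour cells commonly raise glucose uptake, most often through SLC2A1.

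The 2 main glucose carriers moved in opposite directions. SLC2A1 (GLUT1), the carrier of basal glucose uptake, was 6.42-fold higher in CL1-5 as a ratio of mean signals, and SLC2A3 (GLUT3), the high-affinity carrier typical of neurons, was 11.3-fold lower. SLC2A12 and SLC2A10 were higher in CL1-5, and SLC16A9, SLC16A10 and SLC16A5 were lower. Of the 40 genes, 30 exceeded the 40th percentile of the array (19.5 to 20.3 signal units), taken as a stand-in for background, on at least 3 of 6 arrays, and were tested. By limma's moderated test at a Benjamini-Hochberg adjusted p under 0.05 over all 14828 genes tested, 5 rose and 9 fell. Of these, 3 and 4 had a fitted log2 fold change of at least 1 in size. SLC2A10 is counted by that fit, although the data bound its change only at 1.61-fold or more. Over all genes tested 51.7% were called, 23.3% higher and 28.4% lower, and 16.3% were called with a fitted log2 fold change of at least 1 in size. The 14 calls among 30 (46.7%) thus lie near that background. The median log2 fold change was -0.06 for the transporters and -0.03 for all genes. In 15 of the 30 tested transporter genes the lines did not overlap, against 59.0% of all genes tested. P-values measure only the spread between 3 repeats of each line.

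**Figure D1:**
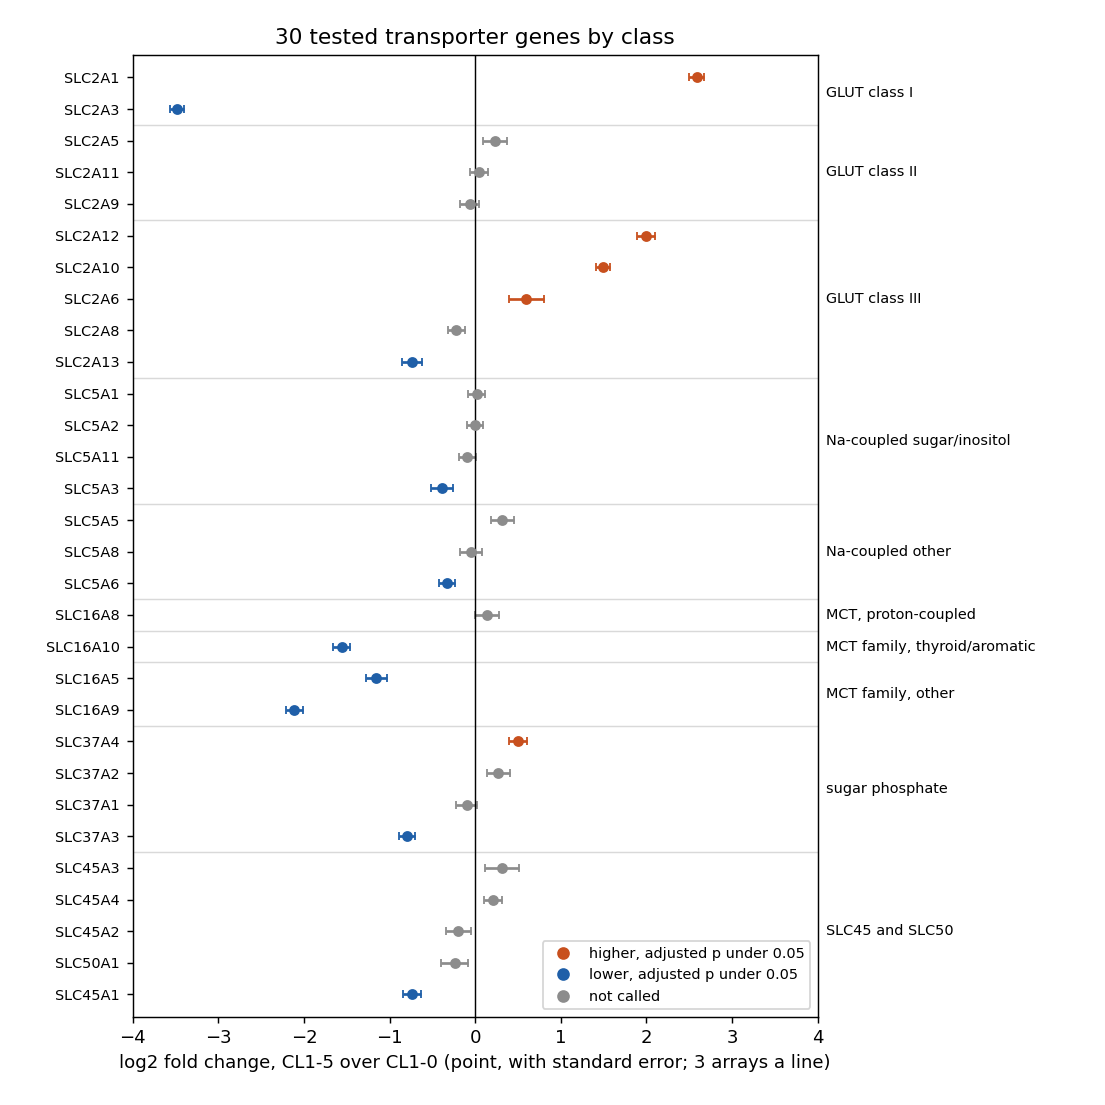
Log2 fold change of CL1-5 over CL1-0 for the 30 tested transporter genes, by class, with standard errors (3 arrays a line); colour shows the call. SLC2A3 lies at -3.48 and SLC2A1 at 2.59, and the 3 called SLC16 genes all lie below 0.

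Array medians lay between 30.2 and 30.9 units. For ACTB the log2 ratio of 3′ over 5′ controls, which tracks RNA integrity, ran from 0.44 to 1.17 in CL1-0 and from 0.31 to 0.91 in CL1-5, highest on repeat 3 of each line. Of 11 lung epithelial markers, KRT19 and SLC34A2 were at or under the 40th percentile on every array, and the lineage factor NKX2-1 was dim (26.9 ± 3.30 and 25.0 ± 0.50 units, SD, n = 3). Their summed level, each marker through its brightest probe set, was 548 to 627 units in CL1-0 and 4795 to 5610 in CL1-5. The gap came from 2 keratins, KRT18 (46.5 ± 7.85 to 4222 ± 417 units) and KRT8 (49.4 ± 0.98 to 555 ± 7.18). EPCAM, an epithelial adhesion protein, went the other way (29.3 ± 3.08 to 10.3 ± 0.85 units, called lower). All its CL1-5 arrays were under the 40th percentile, so EPCAM was at least 1.46-fold lower there. It was tested only through its bright line. CDH1, KRT7, SFTPB, SFTPC, NAPSA and NKX2-1 were not called. Sums for 7 fibroblast markers (262 to 307 and 267 to 281 units) and 4 of 6 leukocyte markers (61.9 to 70.2 and 58.4 to 68.8) overlapped between the lines. LUM, PDGFRA, PTPRC, CD14 and MS4A1 were at or under the 40th percentile on all arrays. Sums for 5 endothelial markers were 103 to 125 and 182 to 193 units, with CDH5 and KDR at or under that percentile on all arrays. Of these, PECAM1 was called higher (49.8 ± 6.13 to 115 ± 4.24 units), while VWF (0.07) and TEK (-0.12) overlapped and were not called. The 2 of 5 erythroid markers with a probe set, HBB and ALAS2, were not called. Through the probe sets tested for them they summed to 53.9 to 71.4 units in CL1-0 and 69.6 to 70.5 in CL1-5, which overlap. Their brightest probe sets gave 50.2 to 72.2 and 75.2 to 84.9 units. The part of any of these levels in the transporter values was not tested.

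The promoters of the genes that changed most are shown because 3 GLUT genes among them rose and 3 SLC16 genes fell. The largest change was a fall, that of SLC2A3, which is also a GLUT gene. Of the 7 genes called with a fitted log2 fold change of at least 1 in size, 5 had an entry in the RefSeq table (GRCh38.p14; 250 bases before to 50 after the start, 5′ to 3′ along the gene), and SLC2A3 and SLC16A5 did not. Capitals mark every match, on either strand, to 6 motifs. The core of the hypoxia response element is read as GCGTG in one form. Its other form is ACGTG. The E-box is CACGTG and overlaps the second form. The GC box is GGGCGG, the promoter motif of the factor SP1. The TATA box is read as TATAAA. The AP-1 site is TGANTCA, where N is any base. The first 3 belong to genes higher in CL1-5 and the last 2 to genes lower in CL1-5.
SLC2A1, chr1:42958819-42959118, minus strand: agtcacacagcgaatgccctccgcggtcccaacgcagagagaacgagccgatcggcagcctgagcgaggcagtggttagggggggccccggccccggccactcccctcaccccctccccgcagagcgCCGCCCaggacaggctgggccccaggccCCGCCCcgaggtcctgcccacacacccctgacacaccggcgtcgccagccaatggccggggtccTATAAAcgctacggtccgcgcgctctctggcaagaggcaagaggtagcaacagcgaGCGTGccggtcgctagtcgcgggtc
SLC2A10, chr20:46709399-46709698, plus strand: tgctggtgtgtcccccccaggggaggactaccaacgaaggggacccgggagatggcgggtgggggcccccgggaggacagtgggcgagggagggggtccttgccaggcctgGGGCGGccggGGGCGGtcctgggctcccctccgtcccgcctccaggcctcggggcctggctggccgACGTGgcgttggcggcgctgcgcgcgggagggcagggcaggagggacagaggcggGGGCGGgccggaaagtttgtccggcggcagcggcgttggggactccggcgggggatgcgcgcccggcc
SLC2A12, chr6:134052575-134052874, minus strand: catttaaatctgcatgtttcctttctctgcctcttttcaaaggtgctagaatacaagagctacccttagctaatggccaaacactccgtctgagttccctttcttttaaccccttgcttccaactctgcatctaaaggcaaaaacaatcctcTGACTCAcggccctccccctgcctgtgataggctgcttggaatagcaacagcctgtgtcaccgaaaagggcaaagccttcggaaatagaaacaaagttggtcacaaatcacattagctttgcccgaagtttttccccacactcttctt
SLC16A9, the upstream of 2 entries, chr10:59710030-59710329, minus strand: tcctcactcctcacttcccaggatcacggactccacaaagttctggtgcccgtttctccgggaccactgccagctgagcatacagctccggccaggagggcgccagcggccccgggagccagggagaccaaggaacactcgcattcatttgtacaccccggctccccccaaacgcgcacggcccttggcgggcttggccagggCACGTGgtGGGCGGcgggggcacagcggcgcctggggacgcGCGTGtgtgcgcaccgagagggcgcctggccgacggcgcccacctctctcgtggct
SLC16A10, chr6:111087253-111087552, plus strand: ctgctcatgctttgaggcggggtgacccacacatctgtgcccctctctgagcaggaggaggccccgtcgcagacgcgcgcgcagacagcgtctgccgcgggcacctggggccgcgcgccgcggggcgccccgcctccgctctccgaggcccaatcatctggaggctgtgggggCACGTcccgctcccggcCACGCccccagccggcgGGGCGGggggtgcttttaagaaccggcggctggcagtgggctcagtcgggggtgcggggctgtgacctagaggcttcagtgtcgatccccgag

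Of the 5 windows shown, 4 held both a GC box and at least 1 hypoxia core form, which 28.3% of all promoters did, and SLC2A12 held neither. The SLC2A1 window held 2 GC boxes, a TATA box 31 bases before the start and 1 GCGTG past the start, and its GC content was 71%. SLC2A10 had 3 GC boxes and 1 ACGTG at 78% GC. SLC2A12 had 1 AP-1 site 98 bases before the start, no match to the other motifs, and 45.7% GC. SLC16A9 held an E-box 47 bases before the start, which also reads as ACGTG on both strands, with 1 GC box and 1 GCGTG. SLC16A10 had 1 match each to both hypoxia core forms and the GC box. Of all 35116 promoters of this length, 36.5% held the GCGTG core and 21.4% the ACGTG core. The E-box stood in 7.26%, the GC box in 45%, the TATA box in 11.5% and the AP-1 site in 7.71%. Among the 40 entries that matched 31 transporter genes the shares were 55%, 15%, 5%, 52.5%, 15% and 7.5%, in the same order. Median GC content was 58.7% over all promoters and 63.5% over these entries. The share of these entries with both a GC box and a hypoxia core form was not counted. A match to these letters is a description of the window, not a bound site.

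Class I GLUTs carry glucose itself. SLC2A1 read 82.1, 81.1 and 84.4 units on the CL1-0 arrays and 534, 519 and 536 on the CL1-5 arrays. The repeats of a line lay close together and far from the other line. Its log2 fold change was 2.59 (SE 0.08, limma adjusted p = 2.7e-08). The log2 difference between same-numbered repeats was 2.60, 2.58 and 2.57. A second SLC2A1 probe set stayed at or under the 40th percentile on all 6 arrays (9.19 ± 0.46 and 17.5 ± 2.74 units, SD, n = 3) and was not tested.

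SLC2A3 read 4478, 4476 and 4856 units in CL1-0 and 381, 390.1 and 447 in CL1-5. It was bright in both lines, and the lines were far apart. The log2 fold change was -3.48 (SE 0.09, limma adjusted p = 5.6e-09), the largest in size among the 30 genes. Differences between same-numbered repeats were -3.53, -3.50 and -3.42. SLC2A14 is a close duplicate of SLC2A3, so signal from it may enter these probe sets. The other SLC2A3 probe sets gave log2 fold changes of -3.14 (SE 0.14) and -3.05 (SE 0.19). Another 2 probe sets that the annotation gives to both SLC2A3 and SLC2A14 differed by -3.12 and -3.39. One of them read 4071, 3666 and 2436 units in CL1-0 and 480.2, 427 and 257 in CL1-5, lowest on repeat 3 of each line. The insulin-responsive carrier SLC2A4 and the liver and beta-cell carrier SLC2A2 lay at or under the 40th percentile on all arrays, with highest signals of 9.22 and 6.69 units.

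**Figure D2:**
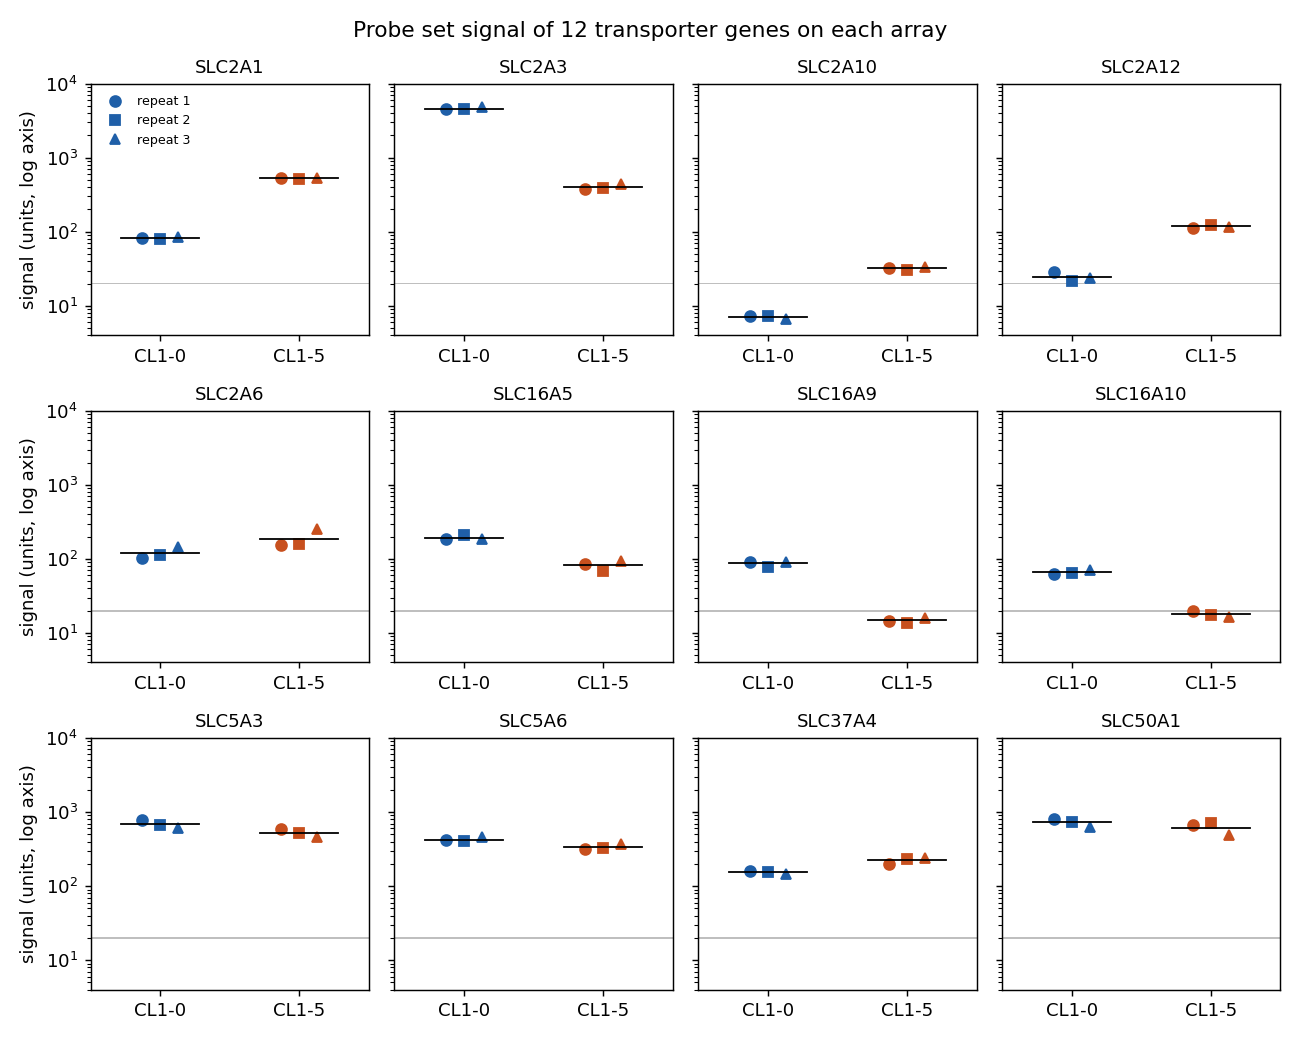
Signal on each array (log axis, in units) for the 7 transporter genes called with a fitted log2 fold change of at least 1 in size and 5 others; symbols are the repeats, black bars the line means, and the grey line is the 40th percentile of the arrays. SLC2A10 lies under that percentile in CL1-0, and SLC16A9 and SLC16A10 lie under it in CL1-5.

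Class III GLUTs, several of which work on internal membranes, held 3 genes that rose and 1 that fell of 5 tested. That is 80% called, against 51.7% of all genes. SLC2A12 (GLUT12), found in muscle and other insulin-sensitive tissue, read 28.4, 21.8 and 23.5 units in CL1-0 and 114, 125 and 116 in CL1-5. All CL1-5 arrays lay far above all CL1-0 arrays, a 4.81-fold ratio of means with a log2 fold change of 2.00 (SE 0.11, limma adjusted p = 8.1e-07). Its second tested probe set rose too, by 1.09 (SE 0.17) on the log2 scale.

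SLC2A10 (GLUT10), whose loss causes arterial tortuosity syndrome, read 7.20, 7.27 and 6.64 units in CL1-0 and 32.3, 30.6 and 33.7 in CL1-5. The CL1-0 arrays were all under the 40th percentile, so the gene was at least 1.61-fold higher in CL1-5 (limma adjusted p = 6.9e-07). That bound sets the mean of the bright line against the percentile. SLC2A10 was tested only through its bright line.

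SLC2A6 (GLUT6), a lysosomal carrier, read 101, 114 and 147 units in CL1-0 and 156, 157 and 252 in CL1-5. The lines did not overlap, but repeat 3 was highest in each. Its log2 fold change was 0.60 (SE 0.20, limma adjusted p = 0.035). Differences between same-numbered repeats were 0.59, 0.45 and 0.75. With same-numbered arrays paired the limma adjusted p was 7.0e-05, and with array weights it was 0.0020. Unpaired, SLC2A6 no longer passed at 0.49 (limma adjusted p = 0.12) with the first CL1-0 array left out. The same held for the second CL1-0 array (0.56, 0.10), for the third CL1-5 array (0.38, 0.074) and when all probe sets were fitted together (adjusted p = 0.051).

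SLC2A13, the proton-coupled myo-inositol carrier, fell by 0.74 on the log2 scale (SE 0.11, limma adjusted p = 0.0006), from 249.8 to 329 units in CL1-0 to 162 to 174 in CL1-5. Its other tested probe set gave 0.13 (SE 0.13) and was not called, so the 2 disagree. SLC2A8, an intracellular carrier, was not called through its main probe set (-0.22, adjusted p = 0.098), although the lines did not overlap. Its dimmer probe set, at 23.9 ± 1.93 and 31.4 ± 2.42 units (SD, n = 3), went the other way and was called higher (0.31, SE 0.09, adjusted p = 0.027 over all probe sets).

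Class II GLUTs gave 0 calls of 3 by limma, against 51.7% of all genes called, and also 0 at an unadjusted p under 0.05. The fructose carrier SLC2A5 (0.23, SE 0.14), the urate carrier SLC2A9 (-0.06, SE 0.11) and SLC2A11 (0.04, SE 0.11) were dim, with means between 38.0 and 47.5 units, and their lines overlapped.

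Of 7 tested SLC5 genes 0 rose by limma's adjusted p (1 at an unadjusted p under 0.05, SLC5A5) and 2 fell. That is 28.6% called, against 51.7% of all genes. SLC5A3 (SMIT1), the sodium and myo-inositol carrier of the osmotic response, read 780.1, 679 and 606 units in CL1-0 and 590.0, 529 and 454 in CL1-5. Repeat 3 was lowest in each line, and the highest CL1-5 array lay just under the lowest CL1-0 array. The log2 fold change was -0.39 (SE 0.13, limma adjusted p = 0.029). Of its other tested probe sets, 1 fell by 0.34 (SE 0.10) and 2 were not called. Differences between same-numbered repeats were -0.40, -0.35 and -0.41. Without CL1-0 repeat 1 or 2 or CL1-5 repeat 2 or 3 the limma adjusted p was 0.105, 0.0752, 0.0721 and 0.0837. The SLC5A3 call was lost in each of these fits, and why was not tested.

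SLC5A6, the sodium-coupled carrier of biotin and pantothenate, read 418, 400.2 and 456 units in CL1-0 and 317, 326 and 369 in CL1-5. The lines did not overlap, and the log2 fold change was -0.33 (SE 0.10, limma adjusted p = 0.019). Without CL1-5 repeat 1 or 2 the adjusted p was 0.069 and 0.077. The glucose carriers SLC5A1 (0.02, SE 0.10) and SLC5A2 (-0.002, SE 0.10), the inositol carrier SLC5A11 (-0.09, SE 0.10) and the monocarboxylate carrier SLC5A8 (-0.05, SE 0.12) overlapped between the lines at 23.3 to 65.2 units on average. The iodide carrier SLC5A5 averaged 94.5 ± 17.4 units in CL1-0 and 118 ± 7.02 in CL1-5 (SD, n = 3), a log2 difference of 0.32 that did not pass (adjusted p = 0.077).

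Among the SLC16 genes 3 of 4 tested fell, and 0 rose by limma's adjusted p or at an unadjusted p under 0.05. Of all genes tested, 28.4% were called lower and 51.7% in either direction. SLC16A9, a carnitine carrier, read 92.1, 78.6 and 90.2 units in CL1-0 and 14.6, 13.8 and 16.1 in CL1-5. All CL1-5 arrays were under the 40th percentile, so SLC16A9 was at least 4.36-fold lower there (limma adjusted p = 3.1e-07). SLC16A10 (TAT1), which carries aromatic amino acids and thyroid hormones, read 62.3, 64.4 and 70.5 units in CL1-0 and 19.9, 17.3 and 16.3 in CL1-5. It was at least 3.30-fold lower in CL1-5 (limma adjusted p = 2.0e-06), and its other 2 probe sets were at or under the percentile on every array. Like SLC2A10, both were tested only through the line in which they were bright.

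SLC16A5 (MCT6), known for carrying drugs, read 186, 207 and 184 units in CL1-0 and 86.7, 69.2 and 93.8 in CL1-5. The lines lay well apart, with a log2 fold change of -1.16 (SE 0.12, limma adjusted p = 6.3e-05). All 3 of its probe sets fell, the others by 0.91 (SE 0.12) and 0.87 (SE 0.14). SLC16A8 (MCT3), the lactate carrier of the retinal pigment epithelium, was dim and overlapped (0.14, SE 0.14). SLC16A7 (MCT2), a high-affinity pyruvate and lactate carrier, had 5 probe sets, none above 11.4 units on any array.

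SLC37A4, the glucose 6-phosphate carrier of the endoplasmic reticulum, read 162, 157 and 146 units in CL1-0 and 197, 229.9 and 241 in CL1-5. The lines did not overlap, and it rose by 0.50 (SE 0.11, limma adjusted p = 0.0035). Its second probe set gave 0.41 (SE 0.16, adjusted p = 0.066 over all probe sets), and its arrays did not overlap either. SLC37A3 went the other way. It fell by 0.80 (SE 0.09, adjusted p = 0.00011), from 615 to 743 units in CL1-0 to 369 to 402 in CL1-5. SLC37A1 (-0.10, SE 0.12) and SLC37A2 (0.27, SE 0.13) were not called.

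SLC50A1 (SWEET1), the sole human member of the sugar-exporting SWEET family, read 815, 739 and 619 units in CL1-0 and 659, 705 and 485 in CL1-5. The lines overlapped, repeat 3 was lowest in each, and the log2 difference of -0.24 (SE 0.15) did not pass (limma adjusted p = 0.24). SLC45A1, a proton-coupled sugar carrier of the brain, fell by 0.74 (SE 0.11, adjusted p = 0.00044), from 101 to 106 units in CL1-0 to 52.5 to 67.2 in CL1-5. SLC45A2, a melanosome protein, was dim in both lines (40.1 ± 5.45 and 34.3 ± 6.66 units, SD, n = 3) and not called (-0.20, SE 0.14). Of 5 melanocyte markers with a probe set, the regulator MITF fell from 1204 ± 96.3 to 152 ± 19.8 units and PMEL fell by 0.47 on the log2 scale. TYR averaged 37.1 ± 2.90 and 37.2 ± 3.81 units and was not called (limma adjusted p = 0.998), and MLANA and TYRP1 were at or under the 40th percentile on every array. The summed level of these markers was 1199 to 1413 units in CL1-0 and 233 to 266 in CL1-5, nearly all of the difference from MITF. Their part in the SLC45A2 value was not tested. SLC45A3 (0.31, SE 0.20) and SLC45A4 (0.21, SE 0.10) were not called.

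With same-numbered arrays paired through a block for the repeat number, 8 transporter genes were higher and 10 lower, against 5 and 9 without it. Calls rose over all 14828 genes tested too, to 4161 higher and 5165 lower, against 3458 and 4214. The added transporter genes were SLC5A5 (adjusted p = 0.022), SLC37A2 (0.036) and SLC45A3 (0.018), all higher, and SLC50A1 (0.0067), lower.

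The remaining 10 of the 40 genes were not tested. These were SLC2A2, SLC2A4, SLC5A4, SLC5A7, SLC5A9, SLC5A10, SLC5A12, SLC16A4, SLC16A7 and SLC16A14. Of these only SLC5A10 exceeded the 40th percentile on any array, on 1 array of CL1-0 at 20.4 units. Low signal on an array does not show that the gene is silent.

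Probe sets of 1 gene share their target and are not independent. Of 46 tested transporter probe sets 6 were called higher and 14 lower (43.5%), against 46.9% of all probe sets tested. Of 12 genes with more than 1 tested probe set, 3 (SLC2A3, SLC2A12 and SLC16A5) had all of them called the same way. In 4 genes (SLC2A8, SLC2A13, SLC5A3 and SLC37A4) some were called and others not, and in 5 none was called. No gene had probe sets called in opposite directions.

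**Figure D3:**
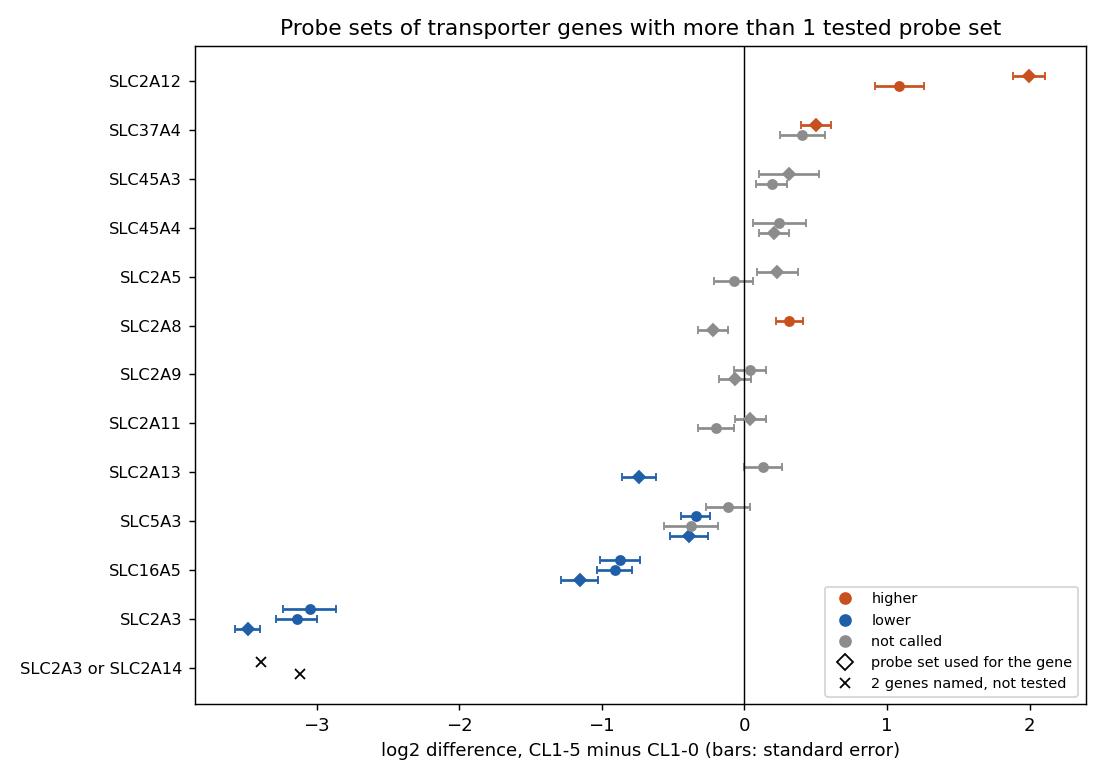
Log2 difference of CL1-5 minus CL1-0 for every tested probe set of the 12 genes with more than 1, with standard errors (3 arrays a line); diamonds are the probe sets used for the gene and crosses are 2 probe sets named for both SLC2A3 and SLC2A14. The SLC2A3 values all lie between -3.48 and -3.05, whereas those of SLC2A13 and SLC2A8 spread to both sides of 0.

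The neighbours of the 7 strongest genes along the chromosome were taken in RefSeq order among tested genes. They moved with these genes in 4 of 14 cases and against them in 5, and were not called in 5. Of all genes tested, 51.7% were called. The divergent transcript SLC2A1-DT did not follow SLC2A1 (-0.01, limma adjusted p = 0.94). SLC2A12 lies between SGK1, a serum- and glucocorticoid-induced kinase that rose by 4.90, and TBPL1, a TATA-binding protein relative that fell by 1.16. SLC2A10 rose between TP53RK (-0.68) and EYA2 (-0.84), which both fell.

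Genes of glycolysis and lactate formation, which act on the sugar these carriers bring in, were mostly higher in CL1-5. Of 27 tested, 16 rose and 5 fell (77.8% called against 51.7% of all genes), with a median log2 fold change of 0.83 against -0.03. Hexokinase 2, HK2, which phosphorylates entering glucose, rose from 269 ± 43.2 to 1893 ± 263 units (SD, n = 3; log2 2.79, SE 0.14). The phosphofructokinase regulators PFKFB4 (2.82, SE 0.09) and PFKFB3 (1.96, SE 0.09) rose, whereas their relative PFKFB2 fell by 1.73 (SE 0.12), from 257 ± 30.2 to 72.9 ± 7.49 units. The muscle-type phosphofructokinase PFKM (-1.44, SE 0.09), the muscle enolase ENO3 (-1.23, SE 0.11) and BPGM (-0.69, SE 0.10) fell too. These 4 that fell were named after their values were seen. The neuronal enolase ENO2 averaged 17.3 ± 4.42 units in CL1-0 and 676 ± 203 in CL1-5. Its CL1-0 average lay under the 40th percentile, although CL1-0 repeat 3 (20.265 units) was above that of its array. The lactate dehydrogenase subunits parted, with LDHA higher (0.83, SE 0.06) and LDHB lower (-0.64, SE 0.07).

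Among genes of mitochondrial pyruvate entry, 4 rose and 6 fell of 12 tested (83.3% called against 51.7% of all genes), with a median of -0.25. The pyruvate carrier subunit MPC2 fell from 2187 ± 176 to 757 ± 49.7 units (log2 -1.52, SE 0.09). Its partner MPC1, named after its value was seen, fell by 0.60 (SE 0.08). Pyruvate dehydrogenase kinase PDK1 (1.58, SE 0.13), which switches the enzyme off, and the phosphatase PDP1 (2.77, SE 0.09), which switches it on, both rose. Pyruvate carboxylase PC rose by 1.38 (SE 0.16).

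Chaperones and regulators of the transporters fell in 6 and rose in 2 of 11 tested genes (72.7% called against 51.7% of all genes), with a median of -0.39. The arrestin-domain protein ARRDC4, a relative of TXNIP that lowers glucose uptake, fell by 2.54 (SE 0.14), from 239 ± 8.81 to 36.0 ± 7.66 units. TXNIP, which removes SLC2A1 from the cell surface, rose by 0.61 (SE 0.13). TBC1D4, a Rab GTPase-activating protein that holds SLC2A4 inside the cell, fell by 1.20 (SE 0.12). EMB, embigin, the partner of SLC16A7, fell by 0.80 (SE 0.09), while basigin BSG, the partner of other MCT carriers, was bright and not called (0.20, adjusted p = 0.25, or 0.0077 in the blocked fit).

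The other companion lists were mixed, and their shares called are to be read against 51.7% of all genes. Of 9 tested genes of glycogen, polyol and fructose metabolism 4 rose and 2 fell (66.7% called, median 0.28). The glycogen phosphorylase PYGB (1.95, SE 0.12), glycogen synthase GYS1 (1.62, SE 0.16) and G6PC3 (1.30, SE 0.13), a glucose 6-phosphatase that acts with SLC37A4, rose. GFPT1, the first enzyme of hexosamine synthesis, fell by 1.12 (SE 0.09). Without CL1-0 repeat 1 or CL1-5 repeat 2 only 1 gene of that list fell. Of 8 genes of inositol synthesis and the osmotic response 2 rose and 2 fell (50% called, median -0.08). NFAT5, the osmotic factor known to induce SLC5A3, fell by 1.10 (SE 0.07), while the taurine carrier SLC6A6 rose by 1.93 (SE 0.09). The inositol monophosphatases parted, IMPA1 at 0.59 (SE 0.07) and IMPA2 at -0.91 (SE 0.14). Of 4 tested genes that handle thyroid hormone, 2 rose (50% called, median 0.34), CRYM (1.38, SE 0.11), a cytosolic binding protein, and the receptor THRA (0.67, SE 0.14).

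**Figure D4:**
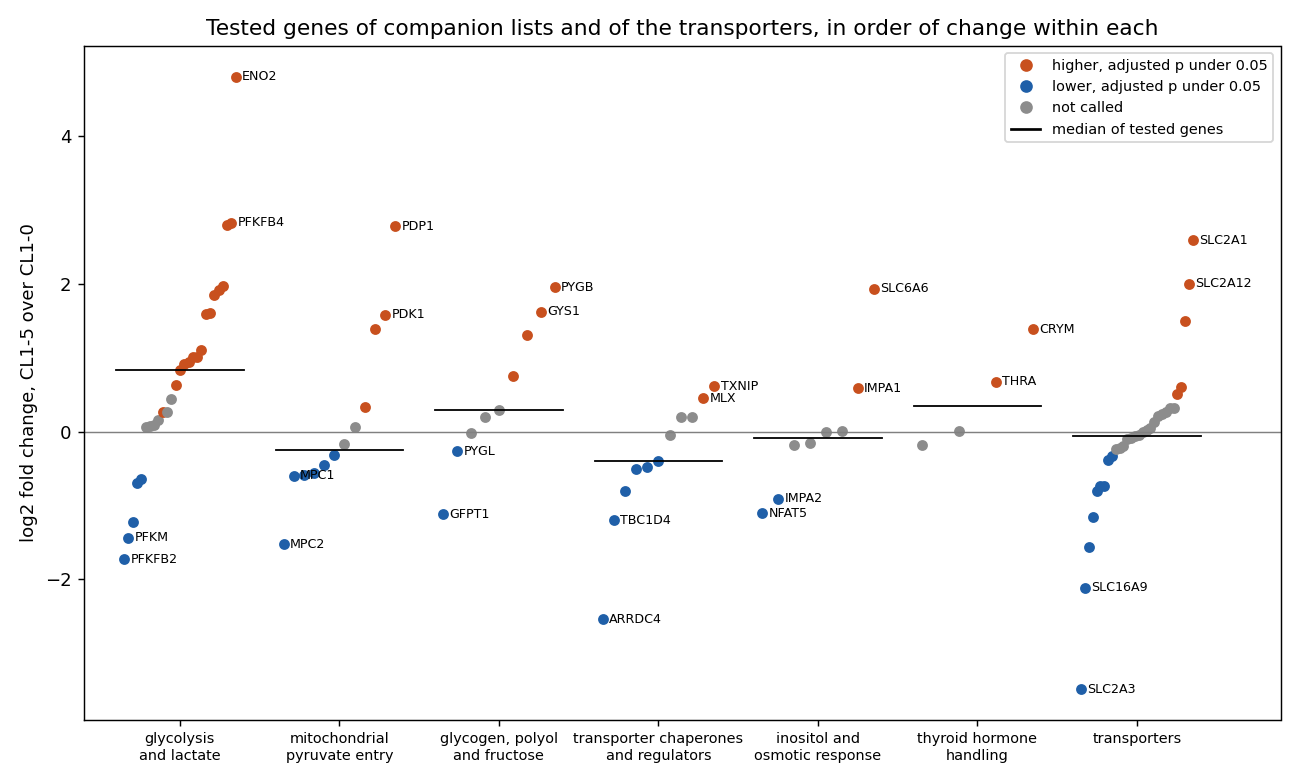
Log2 fold change of CL1-5 over CL1-0 for each tested gene of the 6 companion lists and of the transporters, in order within each list; black bars are medians, colour shows the call, and up to 4 genes per list are named. The glycolysis median lies at 0.83 and the transporter median at -0.06.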

How the data were processed

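Transcripts of CL1-0 and CL1-5 were measured on 6 one-colour arrays. The deposited values are probe set intensity on a linear scale, above 0 throughout. The submitters' processing notes name MAS5, whose version, like any later step and the genome build, was not given in the sources used here. Detection calls and scan dates were not used here. With 6 arrays, their number limits precision. Of 54675 probe sets, 41091 had 1 gene symbol, and 41037 of these were matched by gene identifier to RefSeq (GRCh38.p14) for current symbols.

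Signals were analysed as log2(signal + 6.85), where 6.85 is the 10th percentile over the whole table, a scale on which changes of dim genes are understated. Each gene was read through its brightest passing probe set, and a probe set with suffix x, prone to cross-hybridise, was taken only where no other passed. The fit covered 14828 of 19775 named genes with limma 3.58.1 in R 4.3.3 (lmFit, eBayes with trend), with no block. A line with no array above the 40th percentile gives only a bound on the fold. The steps were tested on simulated data with independent noise on each array. That simulation held no effect shared by same-numbered repeats, so it does not cover one.

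Members, lists and tests were chosen with earlier results of these data known. Array values are given for tested transporter genes called with an absolute log2 fold change of at least 1 and for 12 listed genes where tested (7), others by range. In each of 6 companion lists up to 4 called genes with the largest change are named, with BSG, EMB, TXNIP, LDHA and LDHB. The labels give no shared day for repeat numbers. Over genes, the deviations of repeats 1, 2 and 3 from their line's mean correlated between lines at 0.480, 0.293 and 0.656, so a block was fitted as an alternative. Other alternatives were the constant (1 or 50), the filter, scaling between arrays, prior trend, array weights, choice of probe set, leaving out each array, and a threshold of 0.01.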

Additional observations from a re-analysis of the deposited data

How the results depend on the processing

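Of the 14 called transporter genes, 11 kept the call and direction under every alternative that gave a value. This was not the case for SLC2A6, SLC5A3 and SLC5A6. Of the 16 tested transporter genes that were not called, 7 gained a call under an alternative. These were SLC2A8, SLC2A9, SLC37A2, SLC45A3, SLC45A4, SLC50A1 and SLC5A5. With array weights 9 transporter genes were higher and 11 lower, and with the repeat number as a block 8 and 10, against 5 and 9. Calls over all genes rose too, to 4571 higher and 5744 lower with array weights and 4161 and 5165 with the block. Without either they were 3458 and 4214. The cause was not tested. Leaving out 1 array gave 4 to 6 transporter genes higher and 7 to 9 lower. The adjusted p threshold of 0.01 left 4 higher and 7 lower. With no filter 4 chaperones and regulators were higher, against 2. Genes of glycogen, polyol and fructose metabolism that fell numbered 1 to 2 without 1 array and 1 at the threshold of 0.01. With array weights 1 gene of thyroid hormone handling was lower, against 0. The block changed no call of a transporter gene beyond those given with the results. Over all genes, leaving out 1 array gave 2963 to 3373 higher and 3593 to 4282 lower. Dim genes limit what can be seen, as 10 of 40 transporter genes did not pass the filter.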
